A study of Mus musculus with 6 samples.

Results

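Branched-chain amino acid catabolism was followed through 10 genes, taken by symbol with no threshold on measured values but with earlier results of these data known: Bcat1, Bcat2, Bckdha, Bckdhb, Dbt, Ppm1k, Ivd, Hibadh, Pccb and Mmut (older name Mut). They are 10 of 19057 genes that the array's annotation gives to a probe alone, and 19 probes carry their symbols. Of these probes, 14 were detected (detection p-value under 0.05) on at least 3 of the 6 arrays and were kept, and they cover 9 of the 10 genes. The remaining gene, Mmut, has a single probe, which was detected on 0 of 6 arrays.

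Illumina bead arrays were used to profile heart RNA of male C57Bl6 mice, and the series asked which transcripts differ 72 h after ischemia-reperfusion (IR). The uninjured group holds 3 arrays of wild type hearts from mice that, per the labels, had no surgery. The IR group holds 3 arrays of wild type hearts in which the left anterior descending coronary artery had been closed for 90 min and then reopened for 72 h (3 days), under ketamine and sodium pentobarbital. The signal table calls the control arrays sham, which the labels do not, so whether they had an operation is unsettled, and the labels do not say which part of the heart was taken, so IR samples may mix tissue inside and outside the ischemic area. No age is given in the sources used here, and the labels leave it unsaid whether the arrays of a group stand for different mice, so the p-values reflect variation among these arrays, which may be technical. Arrays are named as in the signal table: WTSham109, WTSham110 and WTSham904 are uninjured, WT3D106, WT3D107 and WT3D886 are IR, and values are always given in this order.

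Leucine, isoleucine and valine enter this pathway through a shared pair of steps in the mitochondrion. An aminotransferase moves the amino group to 2-oxoglutarate, and the branched-chain keto acid dehydrogenase complex then removes a carbon dioxide irreversibly and attaches coenzyme A. A kinase switches the complex off by phosphorylating it and a phosphatase switches it on again, and separate branches carry the products to acetyl-CoA, acetoacetate or succinyl-CoA. The heart oxidises these keto acids, and reduced activity of the pathway is a known feature of failing hearts.

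Of the 9 tested members, 8 fell and 1 rose at 72 h after IR. The mitochondrial aminotransferase, all 3 tested subunits of the dehydrogenase complex, its phosphatase and all 3 tested enzymes further down were lower, and the cytosolic aminotransferase Bcat1 was higher. Among all 10204 genes tested with limma, 34.5% fell, 39.4% rose and 73.9% changed either way at an adjusted p under 0.05. Rises made up 53.3% of these calls, 77.5% under median scaling over all probes, which moved the median of all genes to 0.52, and 42.7% under median scaling over the kept probes, which moved it to -0.14, while the members' counts stayed the same under both. All 8 members that fell did so by at least 2-fold, a size of fall found in 13.6% of all genes. The median log2 difference of the 9 members was -1.96, beside 0.05 over all genes. The groups did not overlap for any of the 9 genes, which was also true of 76.7% of all genes. Each of the 9 chosen probes was detected on all 6 arrays, so none entered the test through 1 group alone. In RNA from heart tissue, fewer cells of a type and less RNA per cell cannot be told apart.

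**Figure D1:**
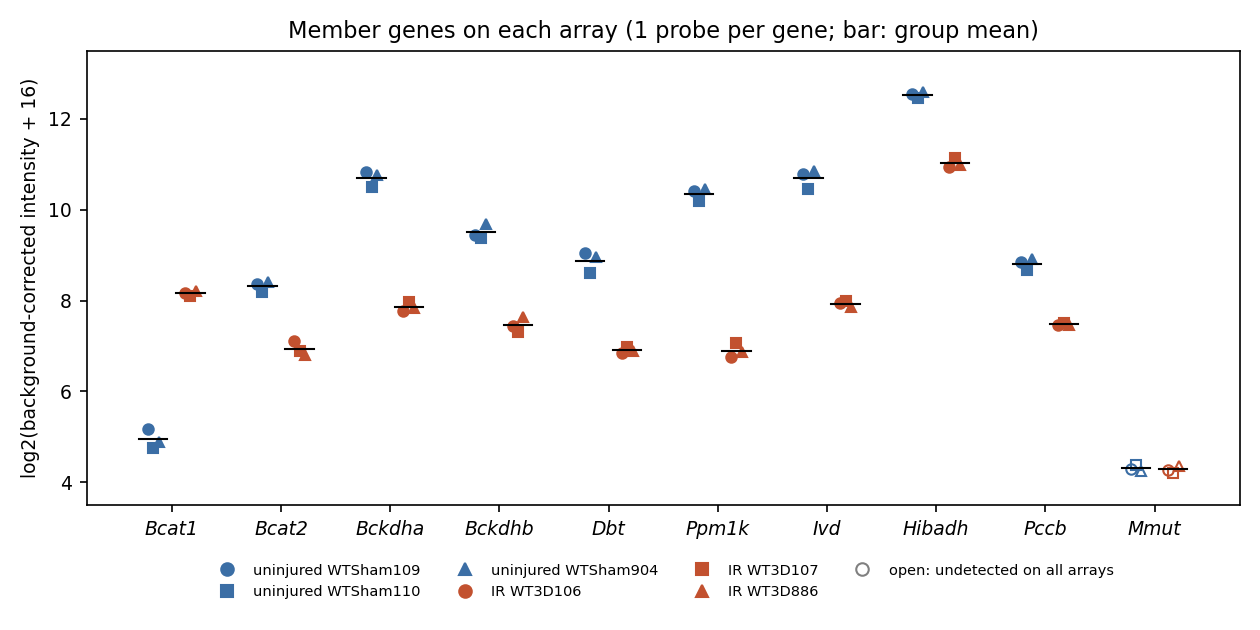
Log2 values (background-corrected intensity plus 16, quantile-normalized) of the 10 members on the 3 uninjured (blue) and 3 IR (red) arrays, at the gene's chosen probe, with a black bar at each group mean and open symbols for a gene undetected on all arrays. The IR arrays lie above the uninjured ones for Bcat1 and below them for the other 8 detected genes, with no overlap, while Mmut stays between 4.21 and 4.39 in both groups. Heights of different genes are not comparable, because each probe binds with its own strength.

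Bcat1 encodes the cytosolic branched-chain aminotransferase, known from brain and from growing or activated cells. Its raw intensity was 96.6, 87.9 and 93.5 on the uninjured arrays, close to the array medians of 83.2 to 86.1, and 416, 406 and 431 on the IR arrays. On the log2 scale after background correction the uninjured values were 5.18, 4.75 and 4.90 and the IR values 8.16, 8.10 and 8.22. Every IR array stood far above every uninjured array, with a gap of 2.93 between the groups against a spread of at most 0.42 within either. The log2 difference was 3.22 ± 0.11 (SE, n = 3 per group; 9.31-fold, adjusted p = 3.97e-07), and 1.18% of all genes rose by more. The size of the rise moved with the background correction: the difference was 1.68 without it and 1.83 in the authors' processed values. The other Bcat1 probe was detected on 1 of 6 arrays and was not tested.

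Bcat2 encodes the mitochondrial aminotransferase, the main form in muscle and heart. Its log2 values were 8.36, 8.20 and 8.41 on the uninjured arrays and 7.10, 6.90 and 6.80 on the IR arrays, which did not overlap. It was 2.62-fold lower, a log2 difference of -1.39 ± 0.10 (SE; adjusted p = 1.08e-05). Median scaling over all probes in place of quantile normalization gave -0.76. A second Bcat2 probe was detected on no array.

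Both genes encode enzymes for the same reaction, and their change was opposite in sign. The log2 ratio of Bcat1 to Bcat2, set relative to its uninjured mean, was 0.20, -0.07 and -0.13 on the uninjured arrays and 4.44, 4.59 and 4.79 on the IR arrays. The shift of 4.61 gave p = 0.10 in a two-sided exact permutation test, the smallest p that 3 against 3 arrays allow. It was 2.64 without background correction and 2.85 in the authors' values.

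Promoter windows of the members, 250 bases before to 50 after an annotated start site, were taken from RefSeq (GRCm38.p6), which gave 11 windows for 8 members and none for Dbt and Mmut. They are shown in lower case for the member that rose, which has a pair of annotated starts, with capitals reserved for matches to the motifs searched.
Bcat1, chr6:145076108-145076407, minus strand: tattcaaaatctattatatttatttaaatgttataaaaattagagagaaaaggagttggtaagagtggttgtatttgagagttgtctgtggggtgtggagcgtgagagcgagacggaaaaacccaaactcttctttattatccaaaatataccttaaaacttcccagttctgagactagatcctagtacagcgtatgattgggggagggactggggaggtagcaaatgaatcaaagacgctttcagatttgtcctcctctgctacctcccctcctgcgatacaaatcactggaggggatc
Bcat1, chr6:145048763-145049062, minus strand: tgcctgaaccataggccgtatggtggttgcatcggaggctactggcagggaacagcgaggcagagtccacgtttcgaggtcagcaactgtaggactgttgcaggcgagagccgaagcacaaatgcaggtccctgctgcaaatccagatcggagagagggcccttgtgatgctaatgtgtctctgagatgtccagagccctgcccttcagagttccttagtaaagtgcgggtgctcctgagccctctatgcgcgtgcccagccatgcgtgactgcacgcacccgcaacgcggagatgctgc
The upstream window was 41.0% G or C with 6 CpG pairs, and the other was 58.7% G or C with 16. Neither window held any of the letters searched on both strands: AAGGTCA, a half-site of the estrogen-related receptors; CACGTG, the E-box bound by Myc and related factors; CCACCC, bound by KLF factors; and the NRF1 motif, read as GCGC, any base and TGCGC. Among 32851 windows of this length over all genes, these motifs occurred in 4.72%, 7.15%, 31.5% and 4.60%. No match says only that the letters are not in these windows, and the array does not tell which start was in use.

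The dehydrogenase complex is built from a decarboxylase of alpha and beta subunits (Bckdha, Bckdhb), a transacylase core (Dbt) and a flavoprotein shared with other complexes (Dld). Bckdha had log2 values of 10.83, 10.49 and 10.76 in uninjured hearts and 7.78, 7.98 and 7.83 after IR. Bckdhb had 9.45, 9.39 and 9.68 against 7.45, 7.32 and 7.64. Dbt had 9.05, 8.60 and 8.96 against 6.84, 6.98 and 6.89. All IR values of these genes lay below all uninjured values by at least 1.62. Bckdha fell by 2.83 on the log2 scale (SE 0.11; 7.13-fold, adjusted p = 5.02e-07), Bckdhb by 2.04 (SE 0.11; 4.10-fold, adjusted p = 2.76e-06) and Dbt by 1.96 (SE 0.12; 3.90-fold, adjusted p = 5.12e-06). The 95% interval of the Bckdha change, -3.09 to -2.58, lay below those of Bckdhb, -2.30 to -1.77, and Dbt, -2.25 to -1.67, which overlapped each other. Probes answer with different slopes, and a difference between subunits was not tested. Another kept Dbt probe, near background and detected on 4 of 6 arrays in all, gave -0.35 ± 0.19 (adjusted p = 0.131 over kept probes), and the mean of both kept probes gave -1.15. Dld, which is outside the 10 genes, fell by 1.69 (SE 0.10, adjusted p = 4.69e-06).

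Ppm1k encodes the mitochondrial phosphatase, also called PP2Cm, that removes the inhibitory phosphate from the complex. The raw intensity of its brightest probe was 1166, 1097 and 1277 in uninjured hearts, against 202, 237 and 214 after IR. Log2 values were 10.41, 10.19 and 10.45 in uninjured hearts and 6.76, 7.06 and 6.87 after IR, leaving a gap of 3.13 between the groups. It was 10.9-fold lower, a log2 difference of -3.45 ± 0.11 (SE; adjusted p = 2.64e-07), a larger fall than in any other member, and 0.431% of all genes fell by more. Its other 3 kept probes fell as well, with differences of -2.45 ± 0.12, -2.44 ± 0.13 and -1.31 ± 0.08, and those had lower uninjured means, 7.48, 7.10 and 5.78 in place of 10.35. The dimmest of them was detected on no IR array and was at least 2.19-fold lower there. The mean over its 4 kept probes gave -2.41, a smaller fall than that of Bckdha (-2.83), which has a single probe. Its rank as the largest fall thus depends on the probe chosen.

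The single annotated Ppm1k promoter window, shown because this member fell most at the chosen probes, was 52.7% G or C and held none of the 4 motifs.
Ppm1k, chr6:57535438-57535737, minus strand: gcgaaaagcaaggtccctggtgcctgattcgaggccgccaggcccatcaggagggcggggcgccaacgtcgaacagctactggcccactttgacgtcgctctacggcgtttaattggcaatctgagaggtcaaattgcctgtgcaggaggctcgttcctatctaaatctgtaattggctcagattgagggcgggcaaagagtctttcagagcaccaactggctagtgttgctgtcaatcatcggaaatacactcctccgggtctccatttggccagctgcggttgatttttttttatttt

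Bckdk encodes the kinase that opposes Ppm1k and is not among the 10 genes. It fell by 1.05 on its brightest probe (SE 0.07, adjusted p = 5.63e-06) and by 0.96 on its other kept probe (SE 0.06), and median scaling over all probes gave -0.51. The log2 ratio of Bckdk to Ppm1k, relative to its uninjured mean, was -0.02, 0.09 and -0.07 on the uninjured arrays and 2.56, 2.19 and 2.46 on the IR arrays. The ratio was higher on every IR array, by 2.40 in the mean, with p = 0.10 in the two-sided exact permutation test, again the smallest possible. With the mean of each gene's kept probes the shift was 1.41. The arrays measure neither the proteins nor the phosphorylation of the complex.

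**Figure D2:**
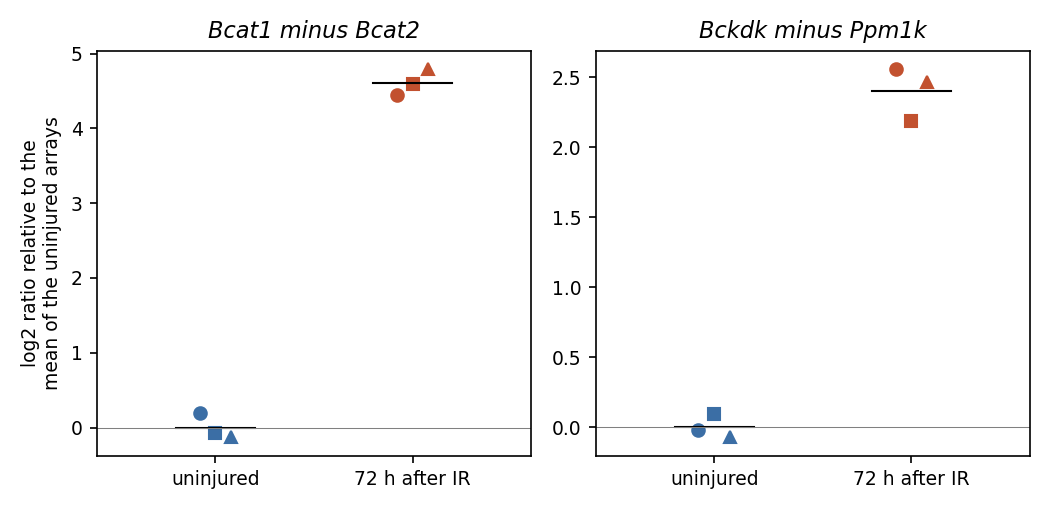
Log2 ratio of Bcat1 to Bcat2 (left) and of Bckdk to Ppm1k (right) on each array, both relative to the mean of the 3 uninjured arrays, with a bar at each group mean. All IR arrays lie at 4.44 to 4.79 on the left and at 2.19 to 2.56 on the right, while the uninjured arrays lie within 0.20 of 0.

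Ivd encodes isovaleryl-CoA dehydrogenase, the next enzyme of leucine breakdown after the complex. Its raw intensity was 1509, 1325 and 1725 on the uninjured arrays and 367, 384 and 350 on the IR arrays, with no overlap. On the log2 scale it fell by 2.77 (SE 0.12; 6.81-fold, adjusted p = 7.65e-07), and 1.22% of all genes fell by more. An additional Ivd probe was detected on no array.

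Hibadh encodes 3-hydroxyisobutyrate dehydrogenase of the valine branch. Log2 values were 12.54, 12.45 and 12.59 in uninjured hearts and 10.94, 11.15 and 10.98 after IR. The fall was 1.50 on the log2 scale (SE 0.08; 2.84-fold, adjusted p = 2.38e-06), between groups that did not overlap.

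Pccb encodes the beta subunit of propionyl-CoA carboxylase, which takes up the carbon of valine and isoleucine. Its probe with the highest mean read 8.85, 8.66 and 8.92 in uninjured hearts and 7.46, 7.51 and 7.47 after IR, a fall of 1.33 (SE 0.08; 2.52-fold, adjusted p = 5.02e-06). The other kept Pccb probe fell by 2.03 (SE 0.13) and had nearly the same mean over all arrays, so that the reported size depends on which is chosen. Median scaling over all probes gave -0.74. Neither choice altered the direction.

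Mmut, which encodes the cobalamin-dependent methylmalonyl-CoA mutase that follows, was not well above background on any array. Its raw intensities were 78.3, 80.8 and 76.9 in the uninjured group and 81.3, 78.1 and 86.6 in the IR group, all below their array's median, and no fold is given.

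Of the 8 members with a promoter window, Hibadh and Pccb alone had windows that held the NRF1 letters, and these are shown with those letters in capitals, which mark the match starting 66 and 69 bases before the start site. In the Pccb window the match is on the opposite strand, so its capitals are the reverse complement of the motif. NRF1 is a factor known to bind promoters of many genes for mitochondrial proteins.
Hibadh, chr6:52640251-52640550, minus strand: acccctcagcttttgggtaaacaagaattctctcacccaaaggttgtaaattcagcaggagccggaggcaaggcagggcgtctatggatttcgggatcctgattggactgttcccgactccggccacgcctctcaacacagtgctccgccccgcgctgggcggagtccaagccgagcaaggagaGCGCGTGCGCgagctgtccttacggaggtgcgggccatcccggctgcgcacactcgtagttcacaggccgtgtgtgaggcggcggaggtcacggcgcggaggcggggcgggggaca
Pccb, chr9:101034835-101035134, minus strand: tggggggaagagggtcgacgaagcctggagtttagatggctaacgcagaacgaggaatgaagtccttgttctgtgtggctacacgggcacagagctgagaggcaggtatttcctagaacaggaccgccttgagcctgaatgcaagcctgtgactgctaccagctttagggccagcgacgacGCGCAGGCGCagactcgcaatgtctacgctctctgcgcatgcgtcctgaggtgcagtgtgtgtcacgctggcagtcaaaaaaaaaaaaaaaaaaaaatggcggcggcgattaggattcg
These 2 of 11 member windows stand beside 4.60% of all windows. The KLF letters occurred in 3 of the 11 windows (Bcat2, Bckdhb and Ivd), against 31.5% of all windows, and the other motifs in 0 of 11. A match is a description of the sequence and not a bound site.

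**Figure D3:**
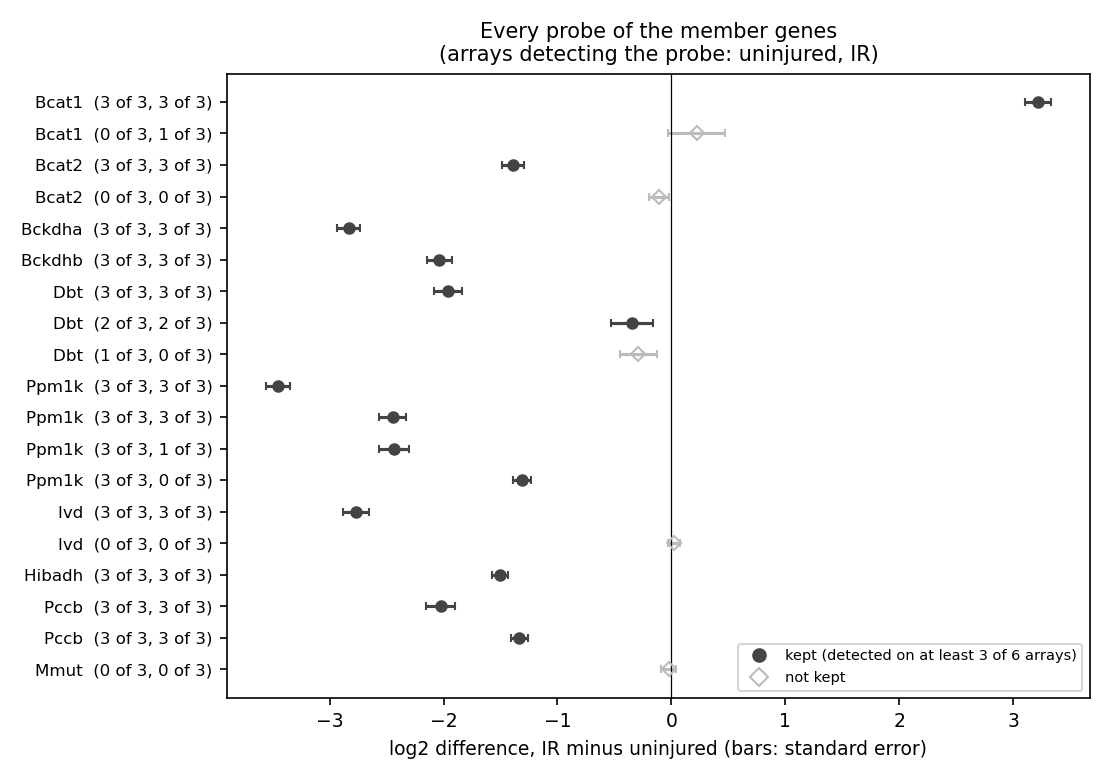
Log2 difference between IR and uninjured arrays (x axis, with standard errors) for all 19 probes of the 10 members, with the number of arrays of each group that detected the probe beside its gene. Of the 14 kept probes (filled), 12 fell, 1 rose and 1 Dbt probe did not pass, and the 5 probes left out (open) lie within 0.29 of 0.

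Over all kept probes of the array, 33.1% fell, 36.5% rose and 69.6% changed either way at an adjusted p under 0.05, beside 12, 1 and 13 of the members' 14. The 5 probes of members left out had log2 means between 4.28 and 4.67, at the low end of the scale where the added 16 dominates. Among the uninjured arrays, WTSham110 had the lowest value for all 9 tested members, Bcat1 included, by at most 0.45 below the highest. WTSham110 also detected more probes (17843) than WTSham109 (16546) and WTSham904 (15891), and the part of this in the members' values was not tested. Without WTSham110 the members' differences moved by at most 0.14, and the 8 falls and the rise were called with any 1 of the 6 arrays left out.

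The remaining enzymes of the pathway were taken from a list of 19 genes, Bckdk and Dld included, of which 16 had a kept probe. Among them 14 fell and 2 rose, with a median log2 difference of -1.74. As processed here, the largest falls were in Aldh6a1 (-2.59 ± 0.09), methylmalonate semialdehyde dehydrogenase of the valine branch, Acat1 (-2.36 ± 0.10), the mitochondrial thiolase that ends the isoleucine branch, and Mccc2 (-2.34 ± 0.06), a subunit of methylcrotonyl-CoA carboxylase in the leucine branch. Without background correction Acat1 was at -0.99 and Mccc2 at -1.25, beside a list median of -1.13, so that their rank depends on that step. Genes of the leucine, isoleucine and valine branches and of the route from propionyl-CoA to succinyl-CoA were among those that fell. Auh, methylglutaconyl-CoA hydratase, had log2 values of 4.57, 4.71 and 4.85 in uninjured hearts, where 1 of 3 arrays detected it, and 5.91, 5.96 and 6.17 after IR, a rise of 1.30 ± 0.10 (adjusted p = 1.76e-05), which shrank to 0.44 if the background was left in. Slc25a44, the mitochondrial carrier of branched-chain amino acids, rose by 0.40 ± 0.14 (adjusted p = 0.0328), a call that held without WTSham109 and was lost on removing each of the other 5 arrays in turn, at adjusted p-values of 0.0628 to 0.0959, and the difference was 0.15 without background correction. Hibch and Mmaa were undetected on all arrays.

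**Figure D4:**
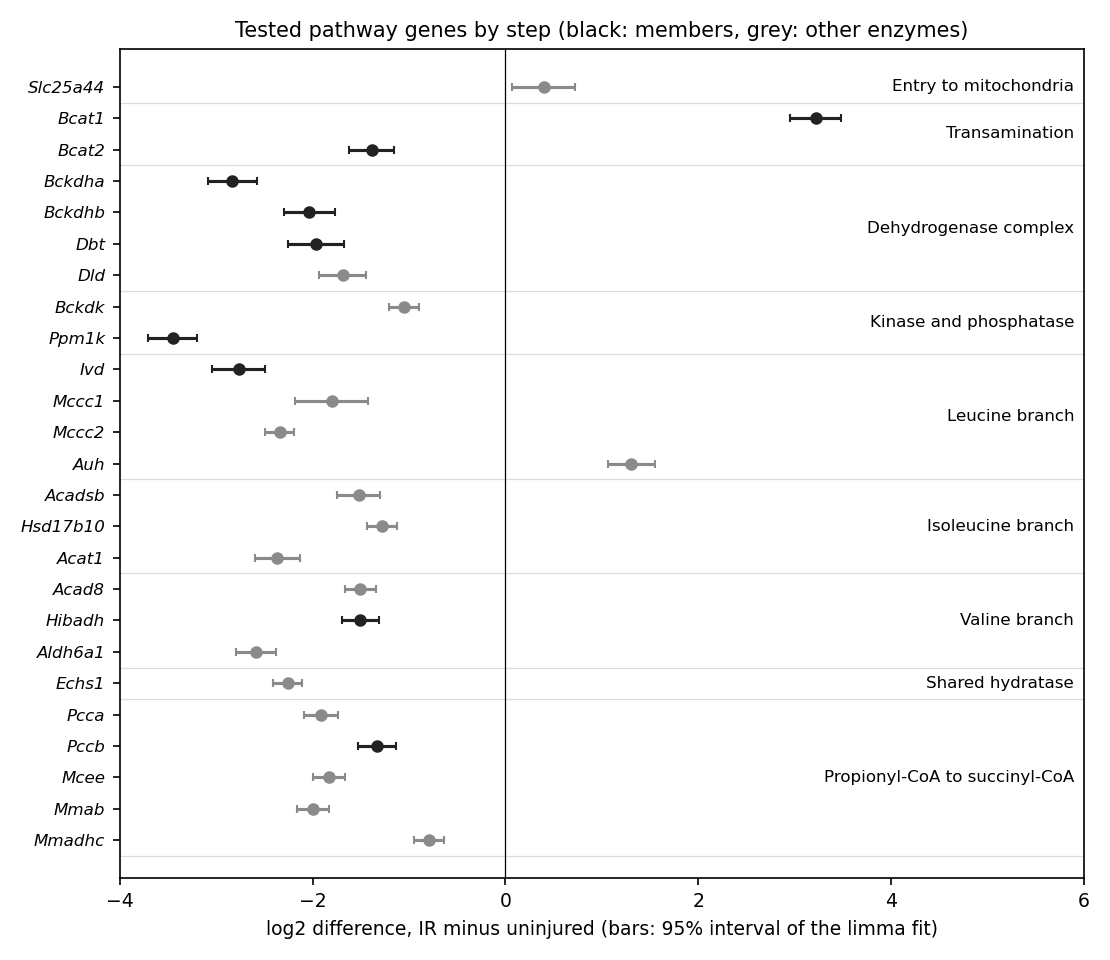
Log2 difference between IR and uninjured arrays, with the 95% interval of the fit, for the tested enzymes and carriers of the pathway in the order of its steps, members in black and the other genes in grey. All lie left of 0 except Slc25a44, Bcat1 and Auh, and Ppm1k lies farthest to the left at -3.45.

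Of 9 transporters and regulators, 6 were tested. Ppargc1a, a coactivator of genes for mitochondrial proteins, fell by 3.64 (SE 0.15), Esrra, its nuclear receptor partner, by 1.33 (SE 0.07), and Klf15, a factor known to raise branched-chain amino acid catabolism in mouse heart, by 0.94 (SE 0.17, adjusted p = 0.00161), with Klf15 detected on 1 of 3 IR arrays. Without background correction Ppargc1a was at -2.41 and Klf15 at -0.30. Slc7a8, a plasma membrane exchanger of large neutral amino acids, had values of 4.44, 4.88 and 4.39 in uninjured hearts, where 1 of 3 arrays detected it, and 7.26, 7.45 and 7.22 after IR, a rise of 2.74 ± 0.14 (adjusted p = 1.94e-06), which shrank to 1.19 if the background was left in. The other kept Slc7a8 probe, detected on no uninjured array, gave 0.97 ± 0.09, and the mean of both kept probes gave 1.86. Slc43a1, another such transporter, rose by 0.34 ± 0.13 (adjusted p = 0.0418) between groups that overlapped, and its call was lost under 12 of the 18 alternatives, with 0.10 if the background was left in. Slc3a2, the partner chain of several amino acid exchangers, had 0.59 ± 0.23 (adjusted p = 0.0529). Its call depended on the processing, and it was called higher under median scaling over all probes, for example.

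Aminotransferases and related enzymes that pass on the nitrogen formed a list of 6, of which 5 were tested. Gpt fell by 2.73 (SE 0.07), Gpt2 by 1.37 (SE 0.15) and Got2 by 1.25 (SE 0.07), enzymes that exchange amino groups with alanine or aspartate, and without background correction Gpt was at -1.75 and Gpt2 at -0.73. Glutamate dehydrogenase, Glud1, had a difference of 0.02 ± 0.07 (adjusted p = 0.835), which turned to -0.20 under median scaling over the kept probes. It was 0.46 under median scaling over all probes. Glutamine synthetase, Glul, had -0.29 ± 0.18 (adjusted p = 0.194), which turned to 0.32 under median scaling over all probes. Of the 5 tested, 1 was called higher under median scaling over all probes, and 4 lower under median scaling over the kept probes.

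Most tested genes of other mitochondrial routes also fell. All 18 fatty acid beta-oxidation genes fell, at a median of -2.28, as did 14 of 15 citric acid cycle genes, at a median of -1.77, and 8 of 9 genes of the pyruvate dehydrogenase complex and its regulators (6 of 9 under median scaling over all probes), at a median of -2.19. The order of these medians and the members' -1.96 changed with the processing: without background correction the members' was -1.54, beside -1.71 for the citric acid cycle, -1.64 for the pyruvate dehydrogenase complex and -2.04 for beta-oxidation. No difference between the lists was tested. Echs1 belongs to both beta-oxidation and branched-chain amino acid lists.

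Outside all lists, the 5 genes whose centred log2 values over the 6 arrays lay nearest to the median profile of the members were Cluh, Lonrf2, Kcnj11, Abcc8 and Egf, with root mean square differences of 0.056, 0.060, 0.069, 0.073 and 0.081. Their own differences were -1.86, -1.81, -1.76, -1.79 and -1.82. A profile over 6 arrays in 2 groups holds little beyond the size of the group difference.

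Cell type markers moved in the same hearts, and their part in the members' changes was not tested. Of 11 cardiomyocyte markers 10 were tested, all were detected in both groups, and 9 fell, the most in Ckm, muscle creatine kinase (-4.10 ± 0.08), while Actc1 (0.04 ± 0.07) did not pass. Their summed background-corrected intensity was 104724 to 107990 in uninjured hearts and 47804 to 50592 after IR. The members' 8 falls ran from -3.45 to -1.33. The cardiomyocyte markers ran from -4.10 to 0.04, a wide span, and a shared cause was not tested. Macrophage markers rose in 9 of 9 tested of 10, the most in Lgals3 (6.35 ± 0.08), and their summed intensity went from between 1883 and 2182 to between 24147 and 26352. Neutrophil markers rose in 4 of 4 tested of 5, led by S100a8 (6.27 ± 0.26), with sums of 22.3 to 57.4 against 2424 to 3838. In uninjured hearts S100a8, S100a9 and Csf3r were each detected on 1 of 3 arrays, counting any probe of the gene. The Csf3r probe used here read 4.37, 4.58 and 4.59, below the lowest detected value of each array (4.81, 4.69 and 4.88). These differences and sums are thus set against values near background, and the largest difference of the list was 4.29 without background correction. Fibroblast markers rose in 5 of 6, led by Col1a2 (3.87 ± 0.09), with Dcn not called (0.01 ± 0.06) and sums of 8616 to 8842 against 14109 to 14236. Bcat1 rose as well, as did 39.4% of all genes, and a link to these 3 lists was not tested. In uninjured hearts Itgam and Cxcr2 were undetected on every array. Of 4 endothelial markers 3 were tested, of which Cdh5 rose (0.30 ± 0.10) and Tek fell (-0.56 ± 0.07), with sums of 942 to 1057 against 912 to 926. No endothelial marker was called higher without WTSham109, WTSham904, WT3D107 or WT3D886, where the largest difference was 0.25 to 0.31. Smooth muscle markers went both ways, with Acta2 at 1.36 ± 0.08 and Myh11 at -1.30 ± 0.15, and sums of 2788 to 3170 against 7140 to 7726. Of skeletal muscle markers Tnnt3 alone was tested, undetected in uninjured hearts and at least 2.09-fold higher after IR. Under median scaling over the kept probes 8 of 9 macrophage markers rose and the lymphocyte marker Cd3d fell (-0.33). There all 10 cardiomyocyte markers fell, Actc1 included, as did the fibroblast marker Dcn (-0.44). All 10 cardiomyocyte markers also fell with the mean of each gene's kept probes, where the smallest fall was -0.19. Under median scaling over all probes 2 endothelial markers rose and 0 fell. Cd3d was called higher there (0.33), as it was without WTSham109 (0.39). Adipocyte markers had no kept probe, and of the lymphocyte markers Cd3d alone was tested (0.20 ± 0.16, adjusted p = 0.279).

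**Figure D5:**
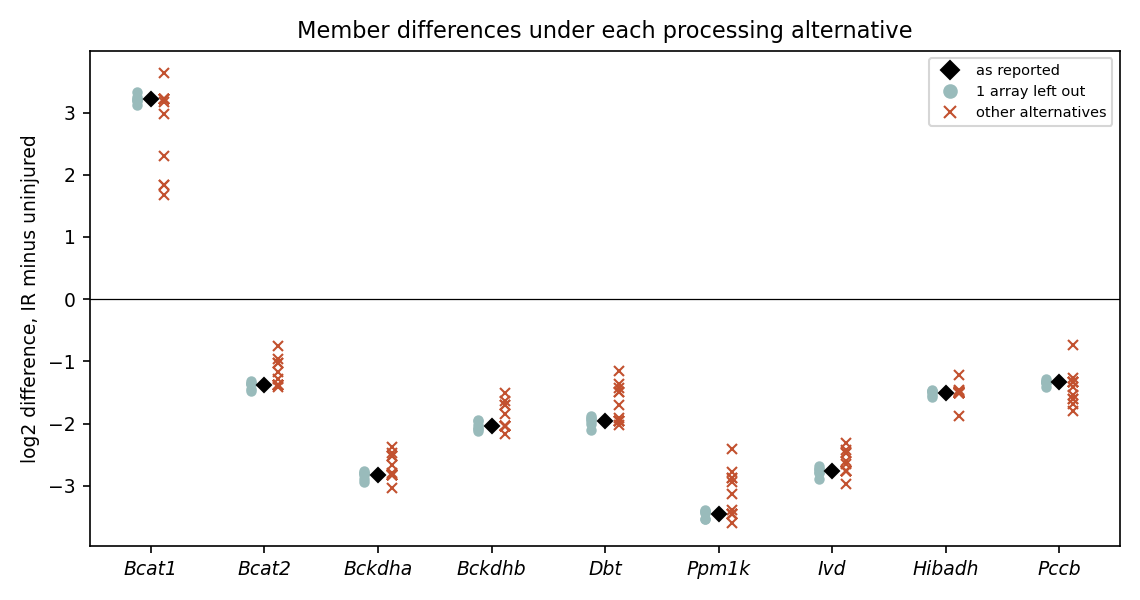
Log2 difference between IR and uninjured arrays for the 9 tested members as reported (black), with 1 array left out (grey) and under every other processing alternative (crosses). All points keep the sign of the reported value, from 1.68 to 3.63 for Bcat1 and from -3.60 to -2.41 for Ppm1k.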

How the data were processed

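Total RNA was labelled with biotin and measured on Illumina bead arrays, per the labels' protocols. The deposited signal table holds the mean bead intensity of 45281 probes and a detection p-value for each array, per the file headers, and GenomeStudio 2010.3 is the software named in the submitters' processing notes. As read from the values, these deposited intensities had no background subtraction and no normalization. A second deposited table holds the authors' processed intensity values, linear and not centred, whose columns share a minimum and a maximum, as quantile normalization gives. How they were made is not given in the sources used here, and they served as an alternative only.

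Under R 4.3.3, limma 3.58.1 computed the values (its robust alternative also used statmod 1.5.0): neqc with background inferred from the deposited detection p-values, an offset of 16, quantile normalization and log2. Probes detected at a p-value under 0.05 on at least 3 of 6 arrays were kept, 18197 in all. A gene took its kept probe with the highest mean, giving 10204 genes, and lmFit and eBayes compared the groups without a block, with Benjamini-Hochberg adjustment over all genes. Probe genes came from the platform annotation (34885 probes with 1 symbol, 18 with several, 10378 with none). Fold changes understate changes of dim genes, and the number of arrays limits precision. Where a probe was undetected throughout a group, "at least" compares the brighter mean with, per array, the higher of the probe's value and the lowest detected value.

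Between 15891 and 17843 probes were detected per uninjured array and between 18013 and 19243 per IR array, so that detection differed with the groups compared. The upper quartile of raw intensity was 109 to 111 on uninjured and 135 to 138 on IR arrays, a difference that quantile normalization removes. Simulated normal values were used to test the lmFit and eBayes step alone. Background correction, normalization, the detection filter and the probe choice were not simulated. The 10 genes, the lists and the naming rule were chosen with earlier results of these data known. The rule names every member probe, Bckdk, Dld and the 3 largest called changes each way among the other enzymes, all called transporters and regulators, the 5 nearest profiles and the extreme marker of each cell type in each direction. Lists short enough to be given whole (nitrogen partners, untested genes) are given whole. Alternatives covered background correction, offset, scaling, the authors' values, filters, probe averaging, the variance model, left-out arrays, the array numbers and the replicate block.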

Additional observations from a re-analysis of the deposited data

How the results depend on the processing

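The members' counts, 8 lower and 1 higher, were the same under all 18 alternatives, and each member kept its direction and its call, the largest adjusted p of limma being 0.000457. Under median scaling over all probes the median of all genes was 0.52 in place of 0.05, 6098 genes were called higher and 1775 lower in place of 4022 and 3523, and 77.5% of calls were rises in place of 53.3%. Under median scaling over kept probes the median was -0.14 and 42.7% of calls were rises. The count of other pathway enzymes called higher was 1 in place of 2 under the kept-probe scaling, with no filter, with detection required on all 6 arrays and with WTSham109, WTSham110, WT3D106 and WT3D107 alone, and 1 to 2 with an array left out, where Slc25a44 lost its call or Auh had no kept probe. Slc25a44 ranged from 0.26 to 0.54 over left-out arrays. Median scaling over all probes also ended the call of Mmadhc (-0.28, adjusted p = 0.0574).

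Glud1 turned from 0.02 to -0.20 under the kept-probe scaling, and from -0.019 to 0.043 over left-out arrays, negative without WTSham110 and without WT3D106, and Glul from -0.29 to 0.32 under median scaling over all probes, and the cause was not tested. Only the authors' table carries replicate numbers. By the ranks of their values, WTSham110, WTSham904 and WTSham109 match uninjured replicates 1, 2 and 3 (Spearman rho 1.00 each). In the same way WT3D106, WT3D886 and WT3D107 match IR replicates 1, 2 and 3. Same-numbered arrays did not deviate together in the authors' values (correlations across genes of -0.04, -0.01 and -0.07), so the numbers are not taken as pairs. With the replicate block on the authors' values 8 members fell and 1 rose, Bcat1 was 1.83 as without the block, and 7438 genes were called in place of 7534. Dim genes are limited by signal over background: of the members, other pathway enzymes, transporters, regulators and nitrogen partners, Bcat1, Acad8, Acat1, Auh, Glul, Gpt, Gpt2, Klf15, Mccc1, Mccc2, Mmab, Ppargc1a, Slc25a44, Slc3a2, Slc43a1 and Slc7a8 shrank by over 1.5 times without background correction.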
